A study of Mus musculus with 9 samples.

Results

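Interleukins are secreted proteins through which immune cells signal to each other, and their receptors are built from 1 or more membrane chains. The CpGs studied here are those nearest to the genes of interleukins and of interleukin receptor chains. A CpG was taken where the symbol of the gene with the closest start site begins with Il and a number, where that gene is not Il10, and where each of the 9 libraries had at least 10 reads. These were 746 CpGs of 72 genes, out of 1897 CpGs deposited for 76 such genes and out of 356320 CpGs of the whole series that met the same read minimum. By symbol, 241 CpGs of 33 genes belong to ligands and 488 CpGs of 38 genes to receptor chains. The other 17 lie near Il4i1, the gene of a secreted amino acid oxidase that the symbol rule also takes. Il17b, Il1f6, Il18bp and Il2rg, the gene of the common gamma chain, had no CpG with enough reads. The assignment is by distance: 62 members lie 100 kb or more from the start site, and 67 lie inside the body of another gene.

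DNA methylation had been measured by reduced representation bisulfite sequencing, which reads CpGs near the cutting sites of the enzyme MspI, in sorted spleen cells (C57Bl/6J, female, age 10 weeks). Naive B cells (B220+ CD43-) came from mice given no agent. Plasmablasts (B220mid CD138+), the dividing stage before plasma cells, and plasma cells (B220low CD138+), the antibody-secreting end stage, were taken on day 3 after the bacterial lipopolysaccharide LPS. There are 3 libraries per group, and the labels do not say which animals stand behind each. A methylation level is the share of reads at a CpG that were methylated, so a change in all cells and a change in the share of cells carrying it cannot be told apart.

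Most interleukins signal through chains shared within a family. The common gamma chain serves IL-2, IL-4, IL-7, IL-9, IL-15 and IL-21, gp130 (Il6st) serves IL-6 and IL-11, and IL-1 and IL-17 family members use receptors of their own kind. In B cells, IL-4 and IL-21 from T helper cells steer class switching and plasma cell formation, and IL-6 supports plasma cell survival. Methylation of CpGs at a promoter is commonly low where a gene is active, while CpGs within genes and between them are commonly methylated, so a level is no measure of expression.

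Promoters of the receptor chain genes differed in how many CpGs they hold. Of these promoters 3 are shown, from RefSeq on build GRCm38.p6 (250 bases before to 50 bases after the start). The letters CG in capitals are the tested CpGs, placed by their distance to the start site to within 1 base. These windows are the 3 in which every tested CpG fell on a CG. For Il17rc this rests on a single CpG. The offset was -1 base for Il17rc and Il20ra and 1 base for Il1rap, and the placing was not checked in another way.

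Il17rc: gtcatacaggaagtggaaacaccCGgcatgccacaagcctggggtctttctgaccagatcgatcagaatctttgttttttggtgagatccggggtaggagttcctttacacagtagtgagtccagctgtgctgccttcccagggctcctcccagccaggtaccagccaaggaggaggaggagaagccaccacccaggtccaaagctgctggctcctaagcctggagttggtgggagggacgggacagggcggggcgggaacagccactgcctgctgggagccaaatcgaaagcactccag

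Il20ra: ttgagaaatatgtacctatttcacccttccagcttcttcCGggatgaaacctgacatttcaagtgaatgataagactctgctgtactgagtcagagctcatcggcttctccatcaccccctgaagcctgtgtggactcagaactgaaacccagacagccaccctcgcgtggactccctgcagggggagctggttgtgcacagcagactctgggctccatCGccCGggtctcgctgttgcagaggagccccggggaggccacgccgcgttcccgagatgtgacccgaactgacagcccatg

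Il1rap: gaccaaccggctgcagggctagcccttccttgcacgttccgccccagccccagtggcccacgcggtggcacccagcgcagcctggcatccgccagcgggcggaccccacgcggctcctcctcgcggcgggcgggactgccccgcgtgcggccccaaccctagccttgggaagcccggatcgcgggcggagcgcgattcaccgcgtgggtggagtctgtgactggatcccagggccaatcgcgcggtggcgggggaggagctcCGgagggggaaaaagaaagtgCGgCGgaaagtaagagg

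The window of Il17rc, a chain of the IL-17A and IL-17F receptor, is at chr6:113471205-113471504 on the plus strand and holds 7 CG, the median over the 32851 promoters of the table. As many or more occur in 52.1% of those promoters. That of Il20ra, a chain of the receptors for IL-19, IL-20 and IL-24, is at chr10:19712337-19712636 on the plus strand and holds 13 (as many or more in 37.9% of promoters). That of Il1rap, the accessory chain of the IL-1 receptor, is at chr16:26581455-26581754 on the plus strand and holds 33 (as many or more in 8.56%). The tested CpG of the Il17rc window stood at 74.0% in naive B cells, then 55% in plasmablasts and then 44.2% in plasma cells. The 3 tested CpGs of the Il20ra window averaged 10.3%, 12.5% and 4.51% in naive B cells, plasmablasts and plasma cells, and the 3 of the Il1rap window 2.51%, 3.42% and 0%.

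Libraries held between 16037172 and 29948088 reads over CpGs, and the median at tested CpGs was 24 to 36 reads. Ligand CpGs had a median of 282 reads over the 9 libraries, receptor chain CpGs 284 and all tested CpGs 276. Over 78187 CpGs of the series with almost no methylation, naive B cells 1 and the 3 plasma cell libraries lay at 0.749% to 1.16%, while naive B cells 2 and 3 and the plasmablast libraries lay at 2.08% to 6.11%. This split, called the background below, runs partly along the groups: it parts every plasma cell library from every plasmablast library. Among 16 measured marker genes of B, plasma, T, NK and myeloid cells, each had a lower mean level in plasma cells than in naive B cells. The plasma cell gene Irf4 averaged 35.6% in naive B cells, then 10.8% in plasmablasts and then 2.94% in plasma cells, and the T cell gene Cd3e averaged 91.9%, 80.2% and 75.4% in naive B cells, plasmablasts and plasma cells. The part of other cell types in the results was not tested.

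Methylation near interleukin system genes fell at both LPS stages, and almost no CpG rose. In plasma cells 246 of the 746 CpGs (33.0%) were lower than in naive B cells and 1 was higher, against 22.7% lower among all tested CpGs. In plasmablasts 97 were lower and 1 was higher, against 10.6% lower among all tested CpGs. A CpG was called where a quasi-binomial model, with limma's moderated dispersion, gave a Benjamini-Hochberg adjusted p under 0.01 over all tested CpGs and the pooled levels differed by at least 20 percentage points. The median difference of the members was -13.8 points in plasma cells and -9.04 points in plasmablasts, and over all tested CpGs it was -9.62 and -5.88 points. Some CpG was lower in plasma cells at 63 of the 72 genes, against 75.1% of all genes, and in plasmablasts at 49, against 57.1% of all genes. Member genes had a median of 7 tested CpGs and all genes 12. Under the background split model, the plasma cell count was 134, against 10.9% of all tested CpGs, and the plasmablast count 103, against 11.8%. With each CpG's own dispersion in place of the moderated one no CpG passed, at either stage: the moderated fit gives every CpG the same dispersion of 1.26, so the spread between libraries at a single CpG does not enter its adjusted p. Members averaged 66.9%, 69.1% and 68.8% in naive B cells, 57.1%, 59.8% and 58.1% in plasmablasts, and 54.7%, 51.2% and 50.3% in plasma cells. The 3 groups do not overlap.

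A larger share of ligand CpGs than of receptor chain CpGs was called lower, and ligand CpGs had the higher mean level at each stage. Lower in plasma cells than in naive B cells were 104 of 241 ligand CpGs (43.2%) and 139 of 488 receptor chain CpGs (28.5%). Lower in plasmablasts were 42 ligand CpGs (17.4%) and 54 receptor chain CpGs (11.1%). These shares describe the 2 classes, with no test of one against the other. When the background split was modelled 55 ligand and 77 receptor chain CpGs were lower in plasma cells. A pair of ligand genes, Il21 and Il34, carries 27 of the 104 lower ligand CpGs in plasma cells. Without them, a setting chosen after seeing the data, 77 of 209 ligand CpGs (36.8%) were lower in plasma cells and 30 (14.4%) in plasmablasts.

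Ligand CpGs averaged 73.6% ± 1.38 (naive B cells), 62.0% ± 1.25 (plasmablasts) and 54.9% ± 2.92 (plasma cells; SD, n = 3). Receptor chain CpGs averaged 66.6% ± 1.04, 57.4% ± 1.57 and 51.5% ± 2.14 in naive B cells, plasmablasts and plasma cells. Over all tested CpGs the means were 62.4% ± 1.23, 54.8% ± 1.16 and 49.8% ± 1.77. The gap between ligands and receptor chains was 6.70, 7.20 and 7.39 points in naive B cells, 5.52, 4.51 and 3.73 points in plasmablasts, and 4.20, 3.99 and 2.29 points in plasma cells. Ligands lay above receptor chains in every library. The gap of each LPS library was below that of each naive library. Averaged over CpGs without Il21 and Il34, the gap was 4.93, 5.04 and 6.02 points in naive B cells and 5.02, 3.95 and 3.03 points in plasmablasts. In plasma cells it was 4.43, 4.58 and 3.24 points, and plasmablasts 1 lies above naive B cells 1. Averaged over genes without Il21 and Il34, the gap was 6.93, 6.36 and 7.88 points in naive B cells. It was 5.15, 2.85 and 3.67 points in plasmablasts and 5.64, 5.36 and 1.97 points in plasma cells, each below every naive library. Within the 4 libraries of low background, plasma cells differed from naive B cells by -17.1 points at ligand CpGs and by -13.9 points at receptor chain CpGs, and over all 9 libraries by -18.7 and -15.1 points. Without Il21 and Il34 the ligand difference over all libraries was -16.3 points in plasma cells and -10.5 points in plasmablasts. Within the 5 libraries of higher background, plasmablasts differed by -12.5 points at ligand CpGs and by -9.77 at receptor chain CpGs, and over all libraries by -11.7 and -9.18 points.

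**Figure D1:**
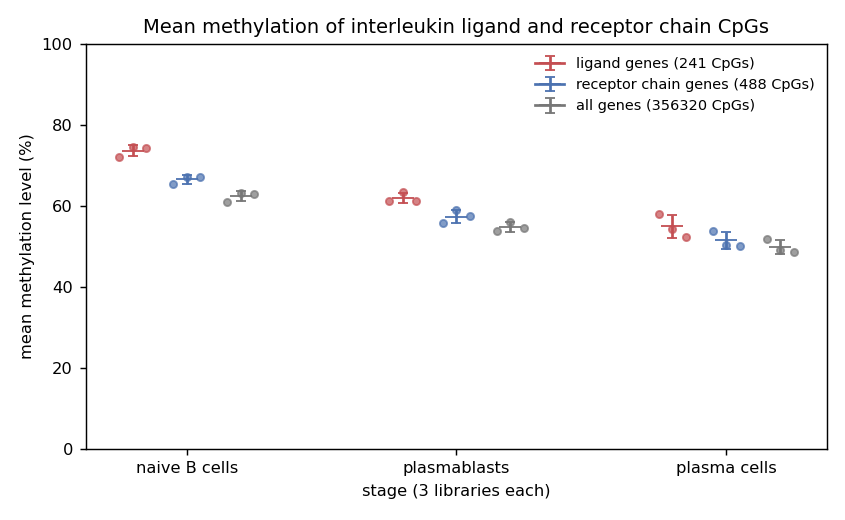
Mean methylation level (%) of ligand CpGs, receptor chain CpGs and all tested CpGs in each library, by stage. Points are libraries, and the horizontal line and bar are the mean and SD of 3 libraries. Ligand CpGs average 73.6%, 62.0% and 54.9% and receptor chain CpGs 66.6%, 57.4% and 51.5% in naive B cells, plasmablasts and plasma cells.

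The share called lower differed by starting level and by position. CpGs under 5% in naive B cells cannot fall by 20 points, and none of the 114 such members was called in either direction. Where naive B cells stood at 80% or more, 87 of 163 ligand CpGs (53.4%) and 116 of 299 receptor chain CpGs (38.8%) were lower in plasma cells, against 33.3% of all tested CpGs of that level. In plasmablasts the shares were 23.3% of ligand CpGs, 15.1% of receptor chain CpGs and 16.3% of all tested CpGs of that level. Between genes, 53 of 112 ligand CpGs and 54 of 205 receptor chain CpGs (26.3%) were lower in plasma cells, against 31.9% of all intergenic CpGs. In introns the counts were 36 of 85 and 57 of 163 (35.0%), against 25.6% of all intronic CpGs. In exons they were 13 of 35 and 17 of 60, against 11.4% of all. In promoters, taken as 2500 bp before to 500 bp after a start site, they were 2 of 9 and 11 of 60, against 7.88% of all. Without Il21 and Il34 the intergenic ligand share was 42.0% and the intronic share 34.3%, the second close to that of receptor chains. Members within 1000 bp of a start site were lower in plasma cells at 23 of 127 CpGs (18.1%), against 4.94% of all CpGs so placed. Where such CpGs stood at 80% or more in naive B cells, 17 of 26 members (65.4%) were lower, against 30.9% of all.

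**Figure D2:**
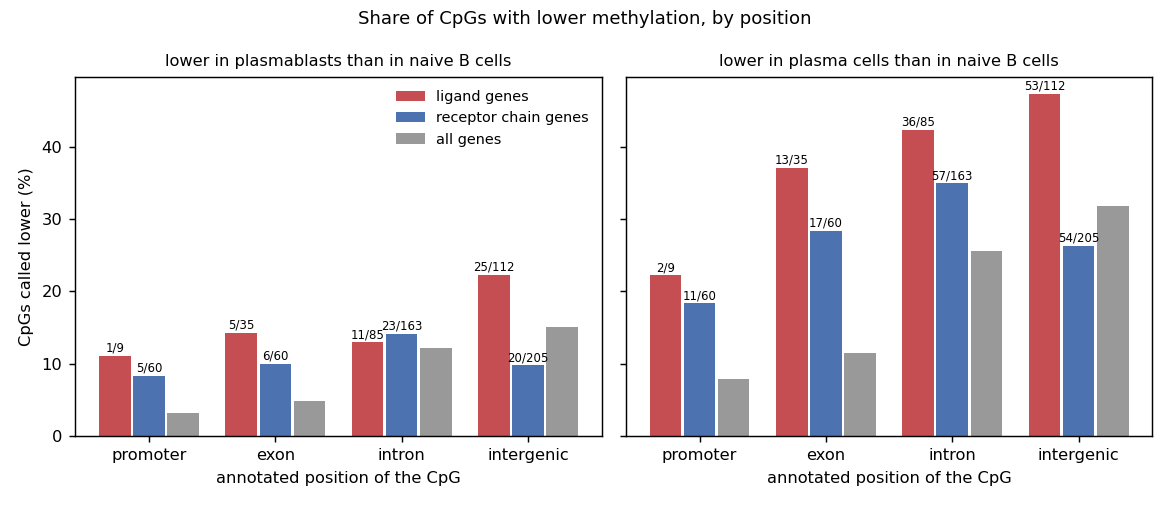
Share of CpGs (%) called lower than in naive B cells, by position, for ligand CpGs, receptor chain CpGs and all tested CpGs, in plasmablasts and in plasma cells. Bars start at 0. In plasma cells 47.3% of intergenic ligand CpGs and 26.3% of intergenic receptor chain CpGs are lower, against 31.9% of all intergenic CpGs.

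Reads were also summed over the CpGs of a gene where at least 5 were tested, here called a gene locus, and the call needed 5 points or more beside an adjusted p under 0.01. Of 45 member loci 37 were lower in plasma cells than in naive B cells, among all loci 67.8%, so loci losing methylation were the rule in the series. In plasmablasts 15 were lower, among all loci 26.1%. None was higher. The median locus difference was -18.8 points in plasma cells and -10.7 points in plasmablasts, and over all loci -15.7 and -7.42 points. The 8 loci not called in plasma cells were the ligand loci Il11, Il17c, Il1f9 and Il24, the receptor chain loci Il10rb, Il1rap and Il20ra, and Il4i1. In the fits without 1 library, 30 of the 37 plasma cell calls and 5 of the 15 plasmablast calls (Il17rd, Il21, Il2ra, Il31ra and Il34) held each time. With the background split as a term 23 loci were lower in plasma cells and 24 in plasmablasts, against 41.8% and 35.2% of all loci. With each locus's own dispersion 30 were lower in plasma cells and 12 in plasmablasts, against 51.7% and 19.7% of all loci. Lost there were the plasma cell calls of Il10ra, Il12rb1, Il15ra, Il17ra, Il20rb, Il33 and Il4ra (adjusted p between 0.011 and 0.0395) and the plasmablast calls of Il12a, Il12rb2, Il16 and Il2rb (adjusted p between 0.012 and 0.0162). Levels given below are means over a gene's CpGs, while differences and adjusted p are of summed reads, in which deeply read CpGs weigh more. At 6 of the 37 loci lower in plasma cells (Il20rb, Il27ra, Il33, Il4ra, Il6ra and Il6st) the difference of summed reads was more than 1.5 times that of the mean levels. By limma on the mean levels 42 loci were lower in plasma cells and 38 in plasmablasts, against 79.9% and 56.2% of all loci. Of the 8 loci not called in plasma cells, Il10rb, Il17c, Il1rap, Il20ra and Il4i1 passed by limma (adjusted p between 1.34e-05 and 0.00238). In summed reads, Il17c and Il4i1 passed without naive B cells 1, and Il1rap and Il20ra without plasma cells 1. Of the loci described below without a plasmablast call in summed reads, those of Il12b, Il12rb1, Il13, Il15, Il15ra, Il17d, Il1r1, Il1rapl2, Il20rb, Il3ra, Il4ra, Il6ra and Il6st passed by limma on mean levels.

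**Figure D3:**
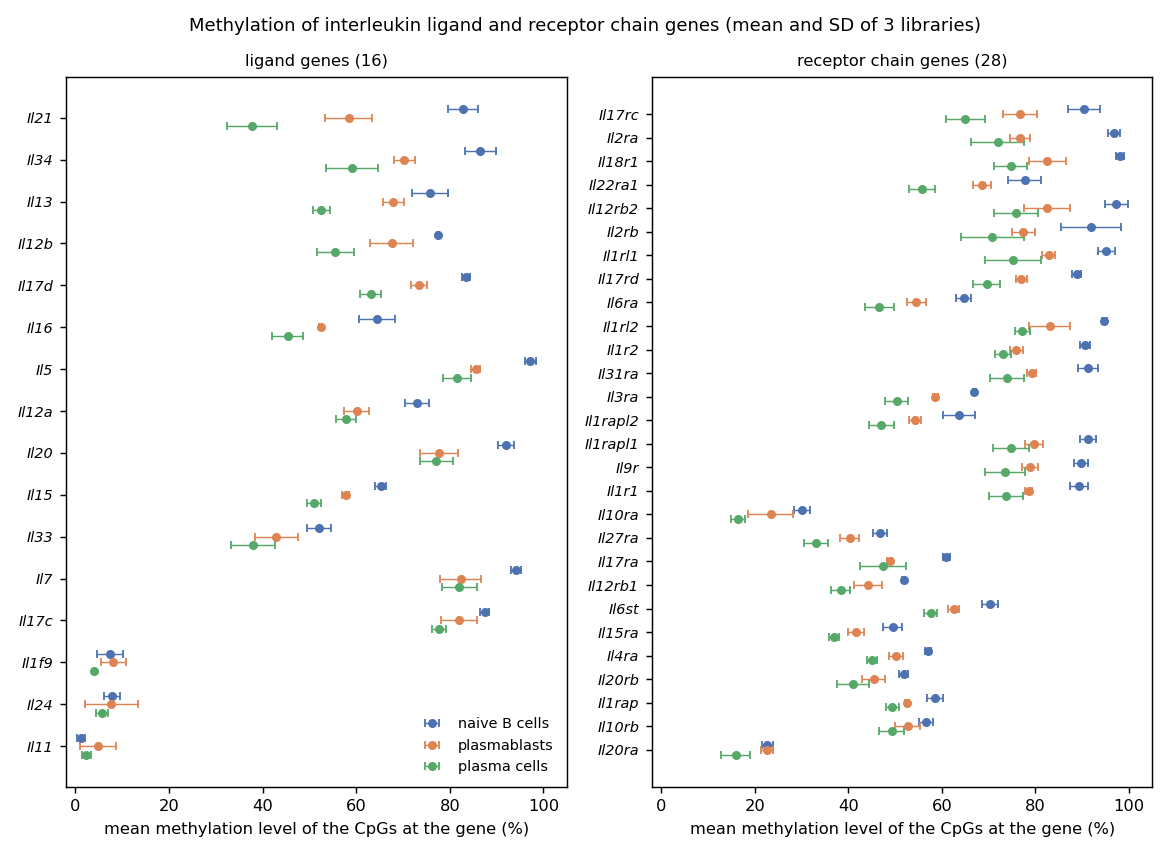
Mean methylation level (%) over the tested CpGs of each ligand gene and each receptor chain gene with at least 5, as mean and SD of 3 libraries per stage. Genes run from the largest loss in plasma cells downward. Il21 stands apart at 82.8%, 58.4% and 37.7% in naive B cells, plasmablasts and plasma cells, and Il11, Il24 and Il1f9 lie under 10% in each.

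Among ligands, Il21, the T helper cell cytokine that promotes plasma cell formation, had the largest locus difference at both stages. Its 12 CpGs, all intergenic and 25.8 to 51.3 kb from the start site (chr3:37080268-37159439, mm9), averaged 79.6%, 86.0% and 82.9% in naive B cells, then 53.0%, 59.5% and 62.7% in plasmablasts and then 43.9%, 34.5% and 34.7% in plasma cells. The groups do not overlap. The locus was lower in plasma cells (-47.4 points, adjusted p = 2.08e-05) and in plasmablasts (-26.1 points, adjusted p = 0.000839), as tested by the quasi-binomial model and limma's moderated dispersion, which gave all adjusted p here. A run of 7 CpGs at chr3:37158980-37159439 averaged 91.1% ± 1.45 in naive B cells, then 61.5% ± 7.62 in plasmablasts and then 36.2% ± 6.64 in plasma cells (SD, n = 3), and 7 of them were lower in plasma cells and 6 in plasmablasts. Il34, whose product binds the receptor of the macrophage growth factor CSF1, had 16 of 20 CpGs lower in plasma cells, all inside the gene (chr8:113265937-113325456). They averaged 86.0%, 90.01% and 83.7% in naive B cells, then 71.4%, 71.6% and 67.6% in plasmablasts and then 64.2%, 60.1% and 53.1% in plasma cells, and the locus was lower in plasma cells (-27.9 points, adjusted p = 5.36e-05) and in plasmablasts (-16.4 points, adjusted p = 0.00158). Its 4 CpGs at chr8:113325162-113325456 averaged 87.7% ± 8.57 in naive B cells, then 66.4% ± 8.56 in plasmablasts and then 52.1% ± 3.98 in plasma cells (SD, n = 3), and all 4 were lower in plasma cells. Il21 and Il34 were lower at each stage in every fit without 1 library.

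Il16, which encodes a chemoattractant for CD4+ cells, had 11 of 25 CpGs lower in plasma cells, against 22.7% of all tested CpGs. Its CpGs, all inside the gene, averaged 60.1%, 66.8% and 66.5% in naive B cells, then 52.0%, 52.6% and 52.5% in plasmablasts and then 48.8%, 45.0% and 42.3% in plasma cells. Summed over the locus, levels were lower in plasma cells (-20.0 points, adjusted p = 0.000149) and in plasmablasts (-11.9 points, adjusted p = 0.00601). The plasmablast call was lost without naive B cells 2, naive B cells 3, plasmablasts 1, plasmablasts 2, plasmablasts 3 or plasma cells 2 (adjusted p between 0.0109 and 0.0379). Il17d, of the IL-17 family, had 8 of 17 lower in plasma cells, with 7 of the 17 CpGs inside the neighbouring gene Ift88. Its CpGs averaged 84.0%, 82.5% and 83.8% in naive B cells, then 72.1%, 75.3% and 72.8% in plasmablasts and then 65.2%, 63.3% and 60.8% in plasma cells, and the locus was lower in plasma cells (-20.7 points, adjusted p = 6.37e-05), while plasmablasts did not pass (-6.93 points, adjusted p = 0.0328). Il12a, the p35 subunit of IL-12, had 7 of 21 lower in plasma cells and averaged 70.2%, 75.1% and 73.9% in naive B cells, then 58.7%, 63.1% and 58.4% in plasmablasts and then 59.4%, 55.3% and 58.6% in plasma cells. Here plasmablasts and plasma cells overlap. Both were lower than naive B cells (-18.8 points, adjusted p = 0.000303 in plasma cells and -11.9 points, adjusted p = 0.00736 in plasmablasts), and the plasmablast call was lost without naive B cells 2, naive B cells 3, plasmablasts 1, plasmablasts 2, plasmablasts 3, plasma cells 2 or plasma cells 3 (adjusted p between 0.0101 and 0.0378). Il15, which shares receptor chains with IL-2, had 7 of 24 lower in plasma cells and averaged 65.2% ± 1.19 in naive B cells, then 57.7% ± 0.706 in plasmablasts and then 51.0% ± 1.43 in plasma cells (SD, n = 3). Its locus was lower in plasma cells (-18.0 points, adjusted p = 0.000588) and did not pass in plasmablasts in summed reads (-2.23 points, adjusted p = 0.616), where mean levels differed by -7.51 points and passed by limma (adjusted p = 0.00054). A run of 5 CpGs lies 147255 to 147761 bp upstream of Il15 (chr8:85074366-85074872). It averaged 97.0% ± 0.579 in naive B cells, then 83.7% ± 0.971 in plasmablasts and then 75.2% ± 2.38 in plasma cells (SD, n = 3), with 4 of 5 lower in plasma cells. Under the background split model Il15 lost its plasma cell call (adjusted p = 0.0127).

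The type 2 cytokine genes Il4, Il13 and Il5 and the growth factor gene Il3 sit together on chromosome 11, and 8 of their 17 CpGs were lower in plasma cells and 2 in plasmablasts. Together they averaged 89.7% ± 1.59 in naive B cells, then 79.2% ± 0.329 in plasmablasts and then 71.2% ± 3.12 in plasma cells (SD, n = 3). Il13 averaged 72%, 75.8% and 79.6% in naive B cells, then 70.4%, 66.3% and 67.0% in plasmablasts and then 53.2%, 53.9% and 50.4% in plasma cells, and the locus was lower in plasma cells (-22.1 points, adjusted p = 0.0012). In plasmablasts the Il13 locus did not pass in summed reads (-6.36 points, adjusted p = 0.267). Its mean levels there differed by -7.89 points and passed by limma (adjusted p = 0.00337). A CpG 6634 bp upstream of Il13 (chr11:53454839) stood at 99.2% ± 1.44 in naive B cells, then 79.1% ± 9.70 in plasmablasts and then 64.0% ± 10.1 in plasma cells (SD, n = 3) and was lower in plasma cells (-37.2 points, adjusted p = 1.54e-06). When the background split was modelled the difference of that CpG was under 20 points (adjusted p = 0.00048). Il5 averaged 96.0%, 97.3% and 98.3% in naive B cells, then 86.4%, 85.6% and 84.5% in plasmablasts and then 84.9%, 79.9% and 79.7% in plasma cells, and was lower in plasma cells (-16.7 points, adjusted p = 0.00061) and in plasmablasts (-15.1 points, adjusted p = 0.00254). The plasmablast call of Il5 was lost without naive B cells 2, naive B cells 3 or plasmablasts 3 (adjusted p between 0.0124 and 0.017). With the background split as a term the plasma cell calls of Il13 and Il5 were lost (adjusted p = 0.0156 and adjusted p = 0.0315). Il4, with 4 CpGs and so no locus test, averaged 91.3% ± 1.83 in naive B cells, then 82.0% ± 3.18 in plasmablasts and then 73.6% ± 7.57 in plasma cells (SD, n = 3), and 1 CpG was lower in each of plasma cells and plasmablasts.

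Il12b, the p40 subunit shared by IL-12 and IL-23, averaged 77.3%, 77.6% and 77.6% in naive B cells, then 62.7%, 71.8% and 68.3% in plasmablasts and then 59.4%, 55.6% and 51.5% in plasma cells over 8 intergenic CpGs, 5 of them lower in plasma cells and 2 in plasmablasts. The locus was lower in plasma cells (-25.9 points, adjusted p = 0.000505). That call was lost with the background split as a term (adjusted p = 0.0147). In plasmablasts it did not pass (-13.02 points, adjusted p = 0.0411), though it did without naive B cells 1 (adjusted p = 0.00835). Il6, a survival factor of plasma cells, had 1 tested CpG, 17.4 kb downstream of its start site (chr5:30357297). It stood at 97.9%, 97.6% and 100% in naive B cells, then 73.2%, 81.8% and 80% in plasmablasts and then 81.4%, 50.0% and 83.3% in plasma cells, and was lower in plasma cells (-22.1 points, adjusted p = 1.84e-05) and in plasmablasts (-20.0 points, adjusted p = 0.000158). The Il6 difference fell under 20 points in plasma cells without plasma cells 2 (adjusted p = 0.0014) and in plasmablasts without naive B cells 3 or plasmablasts 1 (adjusted p between 0.00124 and 0.0033). In plasma cells it was also under 20 points with the background split as a term (adjusted p = 0.00612). Il1b, the pro-inflammatory IL-1 beta, had 3 CpGs about 36 kb upstream, averaging 89.7% ± 2.33 in naive B cells, then 78.6% ± 7.81 in plasmablasts and then 62.5% ± 6.21 in plasma cells (SD, n = 3). Of these 2 were lower in plasma cells and none in plasmablasts. Il2, the T cell growth factor, had 2 CpGs averaging 96.2% ± 5.04 in naive B cells, then 73.3% ± 10.4 in plasmablasts and then 77.9% ± 9.16 in plasma cells (SD, n = 3), with 1 lower in plasmablasts and none in plasma cells. Il11, a ligand of gp130, had 8 CpGs just downstream of its start and averaged 1.19% ± 0.818 in naive B cells, then 4.83% ± 3.79 in plasmablasts and then 2.35% ± 0.918 in plasma cells (SD, n = 3).

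Among receptor chains, Il2ra, the alpha chain that gives the IL-2 receptor high affinity (CD25), held the CpG with the largest fall of all 746 members at both stages, a description since it was picked on that value. It lies in an intron 2638 bp from the start site (chr2:11567058), with 15 to 63 reads per library. It stood at 87.9%, 98.4% and 96.0% in naive B cells, then 16.7%, 30.8% and 16.0% in plasmablasts and then 12.1%, 13.3% and 21.1% in plasma cells. Both LPS stages were lower than naive B cells (-80.3 points, adjusted p = 1.26e-24 in plasma cells and -72.03 points, adjusted p = 4.3e-22 in plasmablasts), and they overlap with each other. The 8 CpGs of Il2ra averaged 95.4%, 97.4% and 97.7% in naive B cells, then 78.3%, 77.5% and 74.3% in plasmablasts and then 76.9%, 65.7% and 73.3% in plasma cells, and the locus was lower in plasma cells (-20.2 points, adjusted p = 0.000101) and in plasmablasts (-18.1 points, adjusted p = 0.000587). The next gene, Il15ra, the alpha chain of the IL-15 receptor, has 10 of its 24 CpGs inside the body of Il2ra. Of these the 5 at chr2:11609636-11609812 averaged 95.9% ± 3.69 in naive B cells, then 81.1% ± 2.43 in plasmablasts and then 70.4% ± 3.64 in plasma cells (SD, n = 3) and were all lower in plasma cells. In contrast, 5 CpGs just before the Il15ra start (chr2:11626937-11626984) averaged 2.23% ± 0.640 in naive B cells, then 2.24% ± 3.43 in plasmablasts and then 0.930% ± 0.829 in plasma cells (SD, n = 3). The Il15ra locus was lower in plasma cells (-14.7 points, adjusted p = 0.00366), a call lost without naive B cells 1, plasma cells 2 or plasma cells 3 (adjusted p between 0.0134 and 0.021), and did not pass in plasmablasts (-4.23 points, adjusted p = 0.428 in summed reads, -7.78 points in mean levels).

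The receptors of IL-6 share a binding chain, Il6ra, and the signalling chain gp130, Il6st. Il6ra averaged 63.0%, 66.3% and 64.7% in naive B cells, then 52.3%, 55.4% and 56.0% in plasmablasts and then 50.1%, 44.5% and 45.2% in plasma cells over 17 CpGs, with 4 lower in plasma cells and 3 in plasmablasts. Summed over the locus, levels were lower in plasma cells (-34.2 points, adjusted p = 0.000258 in summed reads, -18.0 points in mean levels). In plasmablasts it did not pass (-18.6 points, adjusted p = 0.0178), but did without naive B cells 1 or plasma cells 1 (adjusted p between 0.00684 and 0.00696). Il6st averaged 68.6%, 72.1% and 70.3% in naive B cells, then 61.3%, 63.7% and 62.6% in plasmablasts and then 59.1%, 56.5% and 57.1% in plasma cells over 28 CpGs, and 8 were lower in plasma cells and 6 in plasmablasts. Its locus was lower in plasma cells (-22.2 points, adjusted p = 0.000311 in summed reads, -12.7 points in mean levels). In plasmablasts it did not pass (-9.61 points, adjusted p = 0.051), but did without naive B cells 1 (adjusted p = 0.00594). A run of 5 CpGs about 39 kb upstream of Il6st (chr13:113214830-113215396) averaged 20.4% ± 4.27 in naive B cells, then 10.2% ± 2.80 in plasmablasts and then 1.33% ± 0.869 in plasma cells (SD, n = 3). Another 5 about 20 kb upstream (chr13:113233717-113233970) averaged 87.9% ± 3.29 in naive B cells, then 64.2% ± 2.63 in plasmablasts and then 53.4% ± 5.47 in plasma cells (SD, n = 3).

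Il6st also held the 1 member CpG that rose, 29808 bp upstream of the start site between those runs (chr13:113224469, 12 to 50 reads per library). It stood at 66.0%, 50.0% and 71.4% in naive B cells, then 93.1%, 94.1% and 85.4% in plasmablasts and then 96.9%, 100% and 95.8% in plasma cells. Each plasma cell and plasmablast library lay above each naive B cell library. The CpG was higher in plasma cells (32.9 points, adjusted p = 7.04e-06) and in plasmablasts (25.6 points, adjusted p = 0.00126), against 0.0449% and 0.0665% of all tested CpGs that were higher at these stages. The plasmablast call was lost without naive B cells 1 or plasmablasts 2 (adjusted p between 0.0105 and 0.0137), and with the background split as a term (adjusted p = 0.0157).

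The receptor chains of IL-4 and IL-21 lie next to each other on chromosome 7. Il4ra, the chain shared by the IL-4 and IL-13 receptors, averaged 56.2%, 57.2% and 57.5% in naive B cells, then 48.5%, 51.3% and 50.7% in plasmablasts and then 46.1%, 45.3% and 43.9% in plasma cells over 17 CpGs. The locus was lower in plasma cells (-21.0 points, adjusted p = 0.00877 in summed reads, -11.9 points in mean levels), but that call was lost without naive B cells 2, naive B cells 3, plasmablasts 1, plasmablasts 2, plasmablasts 3, plasma cells 2 or plasma cells 3 (adjusted p between 0.0133 and 0.0336) and with the background split as a term (adjusted p = 0.0846). In plasmablasts it did not pass (-5.08 points, adjusted p = 0.539). Its 7 CpGs within 124 bp of the start averaged 1.66% ± 1.06 in naive B cells, then 4.08% ± 1.80 in plasmablasts and then 1.10% ± 0.210 in plasma cells (SD, n = 3). A CpG 5231 bp downstream in an intron (chr7:132701028), picked after its values were seen, stood at 88.2%, 79.3% and 90.9% in naive B cells, then 43.5%, 52.8% and 52.4% in plasmablasts and then 24.1%, 20.0% and 30% in plasma cells. The groups do not overlap there, and the CpG was lower in plasma cells (-60.9 points, adjusted p = 3e-10) and in plasmablasts (-35.4 points, adjusted p = 6.26e-05). Il21r had 4 tested CpGs averaging 35.9% ± 2.46 in naive B cells, then 28.1% ± 4.94 in plasmablasts and then 21.2% ± 2.47 in plasma cells (SD, n = 3). Its CpG 791 bp downstream of the start (chr7:132747735) stood at 47.7%, 23.1% and 53.8% in naive B cells, then 8.93%, 12.2% and 2.86% in plasmablasts and then 0%, 2.56% and 0% in plasma cells, and was lower in plasma cells (-39.5 points, adjusted p = 1.77e-11) and in plasmablasts (-32.0 points, adjusted p = 3.95e-06).

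The remaining receptor chains with the most lower CpGs were those of the IL-12, IL-17, IL-20, IL-3, IL-10 and IL-1 receptors. This order is by count, and a gene with more tested CpGs can hold more. Among all tested CpGs 22.7% were lower in plasma cells. The shares of Il12rb1 and Il10ra lay close to that, and the share of Il20rb lay below it. Il12rb1, shared by the IL-12 and IL-23 receptors, had the most tested CpGs (53) and 13 lower in plasma cells, and averaged 51.5%, 52.2% and 51.6% in naive B cells, then 41.1%, 46.8% and 44.9% in plasmablasts and then 40.6%, 37.7% and 36.8% in plasma cells. Summed over the locus, levels were lower in plasma cells (-17.4 points, adjusted p = 0.00149), a call lost with the locus's own dispersion (adjusted p = 0.0137). In plasmablasts they did not pass (-8.29 points, adjusted p = 0.106), but mean levels did by limma (adjusted p = 0.00175). Of its CpGs 21 form an unmethylated stretch 3453 to 4724 bp upstream (chr8:73327623-73328894) that averaged 3.46% ± 2.41 in naive B cells, then 4.48% ± 2.91 in plasmablasts and then 1.67% ± 0.449 in plasma cells (SD, n = 3). Il17rd, an IL-17 receptor family member, had 9 of 21 lower in plasma cells and averaged 89.8%, 88.8% and 87.8% in naive B cells, then 76.1%, 76.6% and 78.4% in plasmablasts and then 72.2%, 66.6% and 69.8% in plasma cells. It was lower in plasma cells (-20.4 points, adjusted p = 2.61e-05) and in plasmablasts (-11.96 points, adjusted p = 0.000814), and both calls held in every fit without 1 library. Il20rb, a chain of the IL-20 receptors, had 9 of 46 lower in plasma cells, 45 of the 46 being intergenic, against 31.9% of all intergenic CpGs. It averaged 51.8% ± 1.05 in naive B cells, then 45.4% ± 2.41 in plasmablasts and then 41.0% ± 3.40 in plasma cells (SD, n = 3), and was lower in plasma cells (-16.3 points, adjusted p = 0.00246 in summed reads, -10.8 points in mean levels), a call lost without naive B cells 2 or plasma cells 3 (adjusted p between 0.0104 and 0.0178) and with the background split as a term (adjusted p = 0.0348). Il3ra, the alpha chain of the IL-3 receptor, had 8 of 30 lower in plasma cells and averaged 66.5%, 67.2% and 67.2% in naive B cells, then 57.9%, 58.9% and 59.1% in plasmablasts and then 53.0%, 49.1% and 48.8% in plasma cells. It was lower in plasma cells (-23.3 points, adjusted p = 7.34e-05). In plasmablasts it did not pass (-10.4 points, adjusted p = 0.0155), but did without plasma cells 1 (adjusted p = 0.00226).

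Il10ra, the binding chain of the IL-10 receptor, averaged 28.2%, 30.9% and 31.3% in naive B cells, then 19.6%, 28.9% and 21.8% in plasmablasts and then 15.6%, 18.1% and 15.6% in plasma cells over 25 CpGs, 6 of them lower in plasma cells and 3 in plasmablasts. The locus was lower in plasma cells (-12.8 points, adjusted p = 0.00383), a call lost without naive B cells 2, naive B cells 3, plasma cells 2 or plasma cells 3 (adjusted p between 0.0104 and 0.0204) and with the background split as a term (adjusted p = 0.0915). In plasmablasts it did not pass (-2.90 points, adjusted p = 0.553 in summed reads, -6.69 points in mean levels). Il10rb, the signalling chain of the same receptor, averaged 56.6% ± 1.48 in naive B cells, then 52.7% ± 2.76 in plasmablasts and then 49.3% ± 2.73 in plasma cells (SD, n = 3) over 7 CpGs, with 1 lower in plasma cells, and its locus passed at neither stage in summed reads (-2.92 points, adjusted p = 0.606 in plasma cells and 9.79 points, adjusted p = 0.176 in plasmablasts). In plasmablasts summed reads and mean levels point opposite ways: mean levels differed by -3.97 points and did not pass by limma (adjusted p = 0.0754). In plasma cells mean levels differed by -7.36 points and passed by limma (adjusted p = 0.0022). Il1r1, the signalling receptor of IL-1, averaged 89.3% ± 1.97 in naive B cells, then 78.5% ± 0.784 in plasmablasts and then 73.7% ± 3.54 in plasma cells (SD, n = 3) and was lower in plasma cells (-15.0 points, adjusted p = 0.000557), with 5 of 16 CpGs lower. Under the background split model that call was lost (adjusted p = 0.0104). The Il1r1 locus passed in plasmablasts without plasma cells 1 (adjusted p = 0.00475). Il1rapl1 and Il1rapl2, relatives of the IL-1 receptor accessory chain known from neurons, had 7 of 22 and 5 of 15 CpGs lower in plasma cells. Il1rapl1 averaged 91.2% ± 1.67 in naive B cells, then 79.7% ± 1.93 in plasmablasts and then 74.7% ± 3.91 in plasma cells (SD, n = 3), and was lower in plasma cells (-13.7 points, adjusted p = 0.000161) and in plasmablasts (-9.50 points, adjusted p = 0.00334). That plasmablast call was lost without naive B cells 2, naive B cells 3, plasmablasts 1, plasmablasts 2 or plasmablasts 3 (adjusted p between 0.0114 and 0.0176). Il1rapl2 averaged 63.7% ± 3.44 in naive B cells, then 54.2% ± 1.27 in plasmablasts and then 47.1% ± 2.66 in plasma cells (SD, n = 3), and was lower in plasma cells (-16.1 points, adjusted p = 0.000637). Il5ra, the alpha chain of the IL-5 receptor, had 4 CpGs, all inside the neighbouring gene Cntn4 and 68.6 to 86.3 kb from its start. They averaged 95.5% ± 1.04 in naive B cells, then 70.2% ± 6.55 in plasmablasts and then 66.2% ± 9.25 in plasma cells (SD, n = 3), and 3 were lower in plasma cells and 4 in plasmablasts. Il7r, the alpha chain of the IL-7 receptor, had 2 CpGs averaging 87.8% ± 0.981 in naive B cells, then 81.4% ± 3.54 in plasmablasts and then 78.3% ± 3.09 in plasma cells (SD, n = 3), and neither was called.

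Start sites of the interleukin system genes ranged from highly methylated to almost unmethylated in naive B cells. Of 17 genes with at least 3 CpGs within 1000 bp of the start, 7 were lower in plasma cells (among all genes so tested, 12.2%) and 1 in plasmablasts (among all, 1.05%). The ligand genes among the 7 were Il16 and Il25, and the receptor chain genes were Il12rb1, Il17rc, Il27ra, Il3ra and Il6ra. Il25, a ligand of the IL-17 family that promotes type 2 responses, averaged 84.0%, 87.8% and 94.2% in naive B cells, then 70.2%, 72.03% and 79.5% in plasmablasts and then 63.4%, 44.4% and 52.3% in plasma cells over 3 CpGs and was lower in plasma cells (-33.6 points, adjusted p = 0.000632). Il17rc averaged 87.1%, 90.4% and 93.9% in naive B cells, then 74.9%, 74.4% and 80.8% in plasmablasts and then 66.8%, 67.9% and 60.2% in plasma cells over 5 CpGs and was lower in plasma cells (-27.5 points, adjusted p = 0.00015). In plasmablasts the Il17rc start passed without naive B cells 1 (adjusted p = 0.00258) and with the background split as a term (adjusted p = 0.00258). Il12rb1 averaged 80.5%, 81.6% and 84.7% in naive B cells, then 62.8%, 62.7% and 64.1% in plasmablasts and then 53.4%, 57.2% and 52.1% in plasma cells over 5 CpGs, and was lower in plasma cells (-31.5 points, adjusted p = 4.36e-05) and in plasmablasts (-25.2 points, adjusted p = 0.00279). The plasmablast call of Il12rb1 was lost without naive B cells 2, naive B cells 3 or plasmablasts 3 (adjusted p between 0.0103 and 0.0154). Il16 averaged 81.7%, 89.4% and 89.9% in naive B cells, then 64.8%, 76.2% and 67.3% in plasmablasts and then 73.1%, 50.9% and 58.3% in plasma cells over 5 CpGs and was lower in plasma cells (-24.1 points, adjusted p = 0.00138). That call was lost without naive B cells 2, plasma cells 2 or plasma cells 3 (adjusted p between 0.0103 and 0.0164).

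The start regions of Il3ra, Il6ra and Il27ra, the chain that binds IL-27, were mixed, with methylated CpGs beside unmethylated ones. At Il3ra 14 CpGs averaged 31.6%, 32.6% and 32.3% in naive B cells, then 29.1%, 27.8% and 29.4% in plasmablasts and then 19.0%, 20.6% and 19.5% in plasma cells, and the region was lower in plasma cells (-16.2 points, adjusted p = 0.000591). Upstream, 6 CpGs (chr14:15178092-15178138) averaged 3.61% ± 3.74 in naive B cells, then 4.08% ± 1.70 in plasmablasts and then 0.481% ± 0.420 in plasma cells (SD, n = 3). In the first exon the CpG 12 bp after the start stood at 65.5% ± 5.73 in naive B cells, then 45.5% ± 11.5 in plasmablasts and then 24.6% ± 0.687 in plasma cells (SD, n = 3). That 23 bp after the start stood at 82.0% ± 8.14 in naive B cells, then 48.9% ± 4.69 in plasmablasts and then 39.3% ± 6.97 in plasma cells (SD, n = 3). Il27ra averaged 28.9% ± 1.03 in naive B cells, then 25.2% ± 2.44 in plasmablasts and then 19.2% ± 2.89 in plasma cells (SD, n = 3) over 11 CpGs and was lower in plasma cells (-16.2 points, adjusted p = 0.00224 in summed reads, -9.62 points in mean levels), a call lost without naive B cells 3, plasma cells 2 or plasma cells 3 (adjusted p between 0.0137 and 0.0203). Il6ra averaged 33.7%, 37.0% and 34.5% in naive B cells, then 18.6%, 29.9% and 26.2% in plasmablasts and then 16.2%, 11.1% and 12.7% in plasma cells over 9 CpGs and was lower in plasma cells (-27.6 points, adjusted p = 0.000388), a call lost without naive B cells 1 (adjusted p = 0.0155). Its 3 CpGs 925 to 949 bp upstream (chr3:89718010-89718034) averaged 95.2% ± 2.26 in naive B cells, then 64.7% ± 11.5 in plasmablasts and then 37.5% ± 9.47 in plasma cells (SD, n = 3), and all 3 were lower in plasma cells. Its 6 CpGs 283 to 483 bp downstream (chr3:89716600-89716800) averaged 4.99% ± 3.28 in naive B cells, then 5.01% ± 6.06 in plasmablasts and then 1.24% ± 1.25 in plasma cells (SD, n = 3). With a window of 500 bp, which leaves out the upstream CpGs, the Il6ra start did not pass (adjusted p = 0.236), nor did those of Il27ra (adjusted p = 0.244) and Il16 (adjusted p = 0.0215). When the background split was modelled the calls of Il16, Il25, Il27ra and Il3ra were lost, with adjusted p of 0.069, 0.0312, 0.0495 and 0.021.

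The starts of Il10ra, Il11, Il15ra, Il1rap and Il4ra averaged under 6% at each stage. They stood under 5% in naive B cells and so could not be called lower, and none was called higher. Those of Il11ra1, Il15 and Il20ra averaged under 13% at each stage and were not called. The start of Il17ra, the chain shared by the IL-17 receptors, averaged 33.6%, 34.1% and 32.3% in naive B cells, then 18.9%, 24.2% and 21.0% in plasmablasts and then 23.4%, 17.4% and 8.55% in plasma cells over 4 CpGs and did not pass in plasma cells (-17.3 points, adjusted p = 0.014), but did without naive B cells 1, plasmablasts 2 or plasma cells 1 (adjusted p between 0.00869 and 0.0095). That of Il1rapl2 did not pass either (-7.29 points, adjusted p = 0.346).

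**Figure D4:**
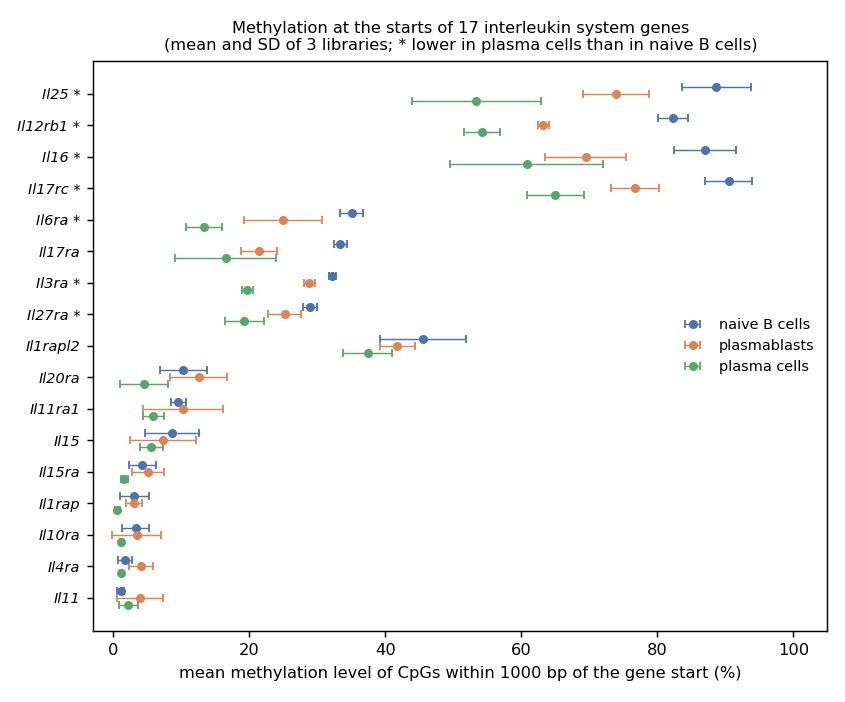
Mean methylation level (%) of the tested CpGs within 1000 bp of the start of 17 genes, as mean and SD of 3 libraries per stage. A star marks the 7 starts that were lower in plasma cells than in naive B cells. The starts of Il12rb1, Il16, Il17rc and Il25 lie above 80% for naive B cells and from 53.4% to 65.0% for plasma cells, and those of Il10ra, Il11, Il15ra, Il1rap and Il4ra lie under 6% at each stage.

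Between the LPS stages few single CpGs differed. Plasma cells were lower than plasmablasts at 6 of the 746 CpGs (0.804%), against 0.619% of all tested CpGs, and higher at none, against 0.000842% of all. These 6 lay near Il21 (2 CpGs), Il12b, Il17d, Il10ra and Il6ra. The Il21 CpG 27671 bp upstream (chr3:37159212, 37 to 64 reads) stood at 91.9%, 97.9% and 96.9% in naive B cells, then 62.5%, 76.9% and 80% in plasmablasts and then 35.1%, 31.0% and 11.7% in plasma cells, and plasma cells were lower than plasmablasts (-49.4 points, adjusted p = 1.02e-09). That call held in every fit without 1 library. The Il12b CpG 44.3 kb upstream (chr11:44169249) stood at 96.3%, 97.2% and 100% in naive B cells, then 94.7%, 96.8% and 92.3% in plasmablasts and then 57.7%, 58.3% and 77.8% in plasma cells, with plasmablasts near naive B cells and plasma cells below both (-31.5 points, adjusted p = 0.00291 against plasmablasts). At Il17d a CpG in an intron (chr14:58149431) stood at 95.6% ± 2.40 in naive B cells, then 88.9% ± 4.80 in plasmablasts and then 61.5% ± 9.33 in plasma cells (SD, n = 3) and was lower in plasma cells than in plasmablasts (-29.9 points, adjusted p = 0.00969). The Il10ra CpG 3504 bp upstream (chr9:45080734) stood at 88.9%, 75.0% and 73.7% in naive B cells, then 17.6%, 53.6% and 60.0% in plasmablasts and then 20.0%, 4.76% and 10.0% in plasma cells (-35.9 points, adjusted p = 0.00352), with plasmablasts 1 near the plasma cell libraries. Its plasmablast difference from naive B cells was called as well (-31.3 points, adjusted p = 0.00425), but not without naive B cells 1, naive B cells 2 or plasmablasts 1 (adjusted p between 0.0126 and 0.0744). Calls between the LPS stages depended on single libraries at the other 5 CpGs. That of Il12b was lost without plasmablasts 2, plasmablasts 3, plasma cells 1 or plasma cells 2 (adjusted p between 0.0123 and 0.0655), that of Il17d without any 1 of the 6 LPS libraries (adjusted p up to 0.179), that of Il10ra without plasmablasts 2, plasmablasts 3, plasma cells 2 or plasma cells 3 (adjusted p between 0.043 and 0.073), that of the other Il21 CpG without plasmablasts 2, plasmablasts 3, plasma cells 2 or plasma cells 3 (adjusted p between 0.0491 and 0.191) and that of Il6ra without plasmablasts 2, plasmablasts 3, plasma cells 2 or plasma cells 3 (adjusted p between 0.0234 and 0.314). By limma on the levels all 6 had adjusted p of at least 0.158. With the background split as a term all 6 were lost as well. That split parts every plasma cell library from every plasmablast library, so stage and split are separated there only through the naive B cell libraries. This fit therefore cannot decide on the 6 calls.

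Per locus, no member passed between plasma cells and plasmablasts in the quasi-binomial model of limma's moderated dispersion (0 of 45, and 0 of all 14220 loci), while 25 had an unadjusted p under 0.05, against 51.4% of all loci. By limma on the levels 11 of 45 passed, against 10.2% of all loci. Without plasma cells 1, the plasma cell library with the highest levels, 10 passed, among them Il21 (adjusted p = 0.00195), Il15 (adjusted p = 0.00195) and Il3ra (adjusted p = 0.00205). At start sites none of 17 passed between these stages, against 0.203% of all. Without naive B cells 1, those of Il27ra, Il3ra and Il6ra passed. The shares of all loci and of all starts that passed in these fits without 1 library are not given. These passes are therefore not read as particular to the members.

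**Figure D5:**
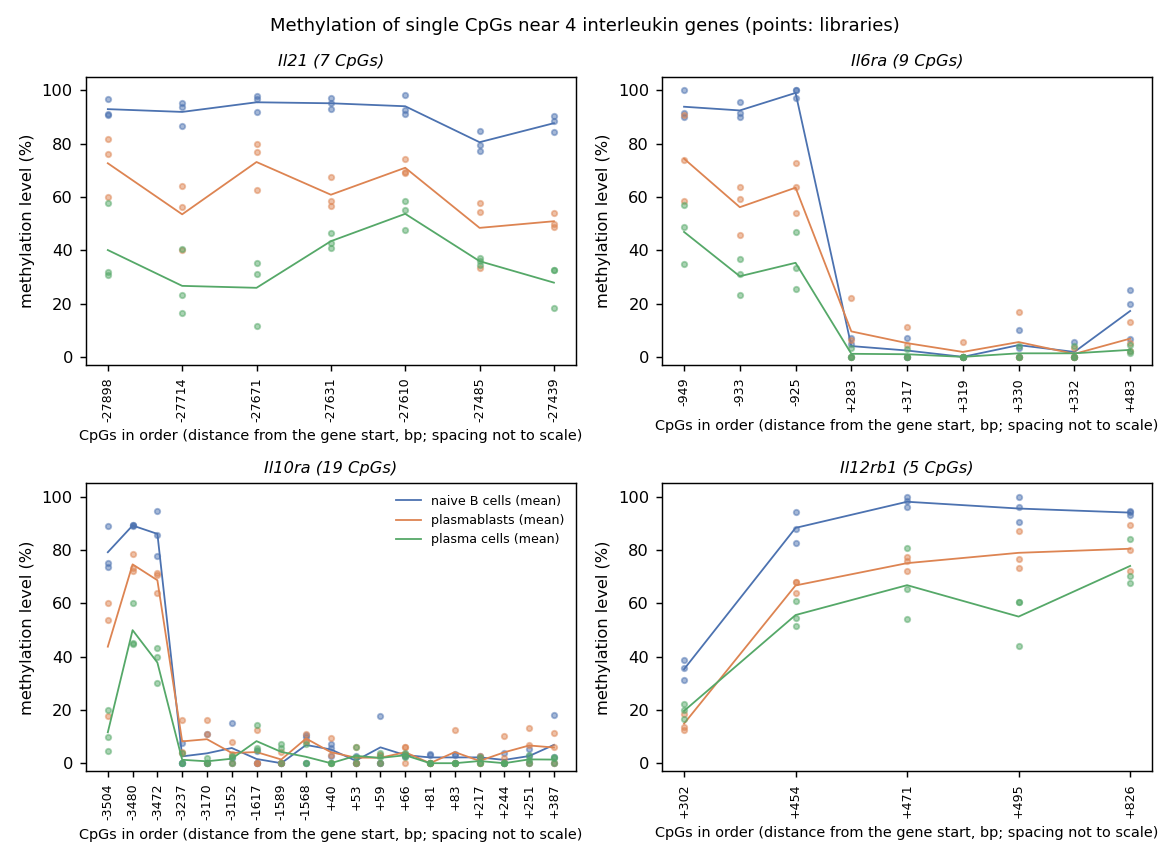
Methylation level (%) of single CpGs near Il21, Il6ra, Il10ra and Il12rb1, in order of distance from the start site (bp, spacing not to scale). Points are libraries and lines are the means of 3 libraries per stage. The 7 Il21 CpGs separate by stage at 91.1%, 61.5% and 36.2% on average in naive B cells, plasmablasts and plasma cells, while at Il6ra and Il10ra methylated CpGs stand beside unmethylated ones, which leave no room for a fall of 20 points.

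Members formed 124 runs of at least 3 CpGs with gaps of at most 500 bp. Of these, 75 averaged 80% or more in naive B cells, 55 of them held at least 1 CpG lower in plasma cells, against 65.2% of all such runs of the series, and in 10 every CpG was lower, against 6.8% of all such runs. Among gene clusters, whose counts stand against the 22.7% of all tested CpGs lower in plasma cells, the ligands Il2 and Il21 had 11 of 14 CpGs lower in plasma cells. All 11 were Il21 CpGs, and neither of the 2 Il2 CpGs was lower. Il17a and Il17f had both of their CpGs lower. The receptor cluster of Il1r1, Il1r2, Il1rl1, Il1rl2 and Il18r1 on chromosome 1 had 17 of 48 lower in plasma cells and 7 in plasmablasts. It averaged 92.5% ± 1.17 in naive B cells, then 79.9% ± 0.680 in plasmablasts and then 74.5% ± 2.62 in plasma cells (SD, n = 3). The IL-1 ligand genes Il1a, Il1b, Il1f5, Il1f9 and Il1f10 on chromosome 2 had 5 of 16 lower in plasma cells. Of these 16, the 5 near Il1f9 averaged 7.38% in naive B cells. The cluster of Il19, Il20 and Il24, with 7 CpGs near Il24 that lie inside the gene Fcmr, had 2 of 16 lower in plasma cells and averaged 56.0% ± 1.27 in naive B cells, then 48.2% ± 3.71 in plasmablasts and then 47.1% ± 2.83 in plasma cells. The 7 CpGs near Il24 averaged 7.82% in naive B cells.

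By family, again against 22.7% of all tested CpGs, the ligands of common gamma chain receptors together with Il13, which uses Il4ra but not the common gamma chain, had 29 of 62 CpGs lower in plasma cells, and their receptor chains with Il13ra1 and Il13ra2 had 26 of 84. Of those 29 ligand CpGs, 11 were near Il21, which has 12 tested CpGs. For the IL-17 family the counts were 15 of 38 ligand CpGs and 17 of 38 receptor chain CpGs. For the IL-6 and IL-12 families they were 17 of 42 and 35 of 136, for the IL-1 family 9 of 28 and 30 of 102, for the common beta chain group 4 of 8 and 11 of 34, and for the IL-10 family 3 of 18 and 20 of 94. Families differed in how many CpGs started low, which leaves little room for a fall of 20 points. In naive B cells the 7 Il24 CpGs averaged 7.82%, the 5 Il1f9 CpGs 7.38% and the 8 Il11 CpGs 1.19%. The stretch of 21 Il12rb1 CpGs averaged 3.46% there. The family counts were not adjusted for starting level. The IL-10 family's ligand CpGs averaged 51.0% in plasma cells, against 60.5% in naive B cells. Il16 and Il34, which belong to none of these families, had 27 of 45 lower in plasma cells.

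A list of 36 other genes of interleukin signalling held kinases, transcription factors, inhibitors, adaptors, further receptor chains and a cytokine subunit. Of these genes, 28 had a locus with enough CpGs. Of these 22 (78.6%) were lower in plasma cells, against 67.8% of all loci, with a median difference of -16.3 points against -15.7 over all loci. In plasmablasts 3 (10.7%) were lower, against 26.1% of all loci, with a median of -5.42 points against -7.42. The 3 were Jak3, the kinase bound to the common gamma chain, Osmr, a receptor of the gp130 group, and Irak4, a kinase of IL-1 receptor signalling. The kinase gene Tyk2 differed by -26.6 points in plasma cells (adjusted p = 0.000605) and Stat3, a transcription factor acting downstream of IL-6 and IL-21, by -20.1 points (adjusted p = 0.00703). Stat6, acting downstream of IL-4, did not pass in plasma cells (-3.75 points, adjusted p = 0.26). In summed reads Stat6 stood at 16.5% ± 6.59 in naive B cells, Tyk2 at 44.5% ± 3.32 and Stat3 at 56.3% ± 9.44 (SD, n = 3). The low start of Stat6 limits how far it can fall.

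In the authors' deposited table of CpGs that differed between plasma cells and naive B cells, 176 of the 746 members (23.6%) were listed, against 15.3% of all tested CpGs. The authors' deposited table for plasmablasts held 36 members (4.83%), against 3.31% of all tested CpGs.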

How the data were processed

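Reduced representation bisulfite sequencing of 9 libraries was analysed from the authors' deposited table of CpGs, aligned to mm9 with Bismark and Bowtie2, per the submitters' processing notes. The deposited values are counts of methylated and unmethylated reads per CpG and library, and the deposited fraction is the methylated share of those reads. The authors paired each CpG with the nearest start site. The authors' deposited lists hold CpGs called at a coverage of at least 10, with the tool not given in the sources used here.

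CpGs with at least 10 reads in all 9 libraries entered a quasi-binomial logistic fit of all libraries, in which each group has its own level. Dispersions were moderated with limma 3.58.1 in R 4.3.3 and kept at 1 or more, and p-values were Benjamini-Hochberg adjusted over all CpGs, all loci (at least 5 CpGs) or all starts (at least 3 CpGs within 1000 bp). The model was tested on simulated data. Calls needed an adjusted p under 0.01 and 20 points for a CpG or 5 for a locus or start. The labels do not say that libraries of a group came from separate animals, so p-values of loci and starts measure the spread between libraries, which may be technical. Those of single CpGs rest on read counts and 1 dispersion shared by all CpGs. With 3 libraries per group an exact permutation test cannot go below 0.1. Same-numbered libraries deviated together at no more than 0.0302 (correlation), so they were not treated as paired. Deviations at single CpGs also hold the sampling of reads, so these correlations cannot exclude pairing.

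Members, classes and lists were chosen with earlier results of these data known. Named genes were the 6 ligand and 10 receptor chain genes with most lower CpGs in plasma cells, any gene with a higher CpG, the 5 with most CpGs called between the LPS stages, those called at their start, and a list of genes known from B cell biology. Single CpGs and runs were picked after their values were seen. Alternatives changed the read minimum, thresholds, dispersion, model, window and libraries. The library split by background was a further term.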

Additional observations from a re-analysis of the deposited data

How the results depend on the processing

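Counts below give plasma cells against naive B cells, then plasmablasts against naive B cells, then plasma cells against plasmablasts, for lower CpGs or loci. Where no share over all features stands above for a setting, its count does not separate a shift of the members from a shift of the whole series. None of the 99 called loci, starts and named CpGs changed sign under any alternative run, while 49 of 147 such differences without a call did, 38 of them with the background split as a term and 31 of those between the LPS stages, and none was called there. Among differences given above, that of Il10rb in plasmablasts became -3.97 points by limma. Without 1 library, that of Il10rb in plasma cells ran from -5.97 to 1.60 points (highest without naive B cells 1), that of Il10ra in plasmablasts from -6.51 to 0.360 points (highest without plasmablasts 1) and that of Il15ra in plasmablasts from -7.26 to 0.475 points (highest without naive B cells 1). At 20 reads Il10ra stood at 0.0613 and Il15ra at 1.25 points in plasmablasts, and with the background split as a term Il15ra stood at 0.487 points. With each CpG's own dispersion all CpG counts were 0, lower and higher, while the moderated fit had 246, 97 and 6. At 20 reads members gave 97, 39 and 2, ligands 45, 21 and 2, receptor chains 52, 18 and 0, loci 16 and 9, and no CpG was higher. At 5 reads 2 CpGs were higher in plasma cells, and 5 receptor chain CpGs were lower than in plasmablasts. With a minimum of 10 points members gave 196, ligands 75 and receptor chains 120 in plasmablasts. With 30 points members gave 116 and 33, ligands 55, 16 and 2, and receptor chains 59 and 16, and none was higher in plasmablasts. At adjusted p under 0.05, plasma cells were lower than plasmablasts at 23 members, 8 ligand and 14 receptor chain CpGs and 11 loci, and plasmablasts were lower at 27 loci. By limma on levels members gave 49, ligands 20 and receptor chains 29 in plasmablasts with none higher, 0 of each between the LPS stages, and 38 loci in plasmablasts and 11 between the LPS stages.

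The replicate block (numbers that do not pair the libraries) gave 175 and 11 members, 66 and 7 ligand CpGs, 4 receptor chain CpGs in plasmablasts, none higher in plasmablasts, 0 of each between the LPS stages, 7 loci in plasmablasts and 1 start between the LPS stages. The background split as a term gave 134 members, 55 ligand and 77 receptor chain CpGs in plasma cells, 0 of each between the LPS stages, none higher in plasmablasts, loci at 23 and 24, and starts at 3, 2 and 1. Between the LPS stages that term is separated from stage only through the naive B cell libraries, so its counts there decide nothing. With a window of 500 bp 3 starts were lower in plasma cells. Averaged over genes, ligands differed by -14.2 points in plasmablasts and receptor chains by -17.4 points in plasma cells. Leaving out 1 library gave 0 to 2 higher CpGs and 5 to 24 lower loci in plasmablasts, 0 to 2 lower starts in plasmablasts, and between the LPS stages 1 to 9 members, 1 to 4 ligand CpGs, 0 to 5 receptor chain CpGs, 0 to 10 loci and 0 to 3 starts. The causes of these shifts were not tested, except that fewer CpGs are tested at 20 reads. A read minimum of 10 limits what a single CpG can show.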
